A study of Vitis vinifera with 15 samples.

Results

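The genes described here are the transport genes other than sugar carriers of “Gaglioppo” leaves, 235 genes of 29970 in all. They were taken from the study's supplementary list of 2692 genes that passed a 4-fold change in at least 1 graft combination with respect to GAG-1103P, where 242 carry the category Transport. From these, 7 were left out because their annotation names a sugar, a hexose or a nodulin MtN3 protein. The list holds the 235 genes in 2 parts, Cluster 1 with 171 genes, whose means in GAG-41B were all above those in GAG-1103P, and Cluster 2 with 64 genes, whose means were all below. The members were therefore chosen by the changes of these same libraries against GAG-1103P, and values of that kind are given below as a description, without a test. Only the counts on unplaced scaffolds include 6 members in a test against GAG-1103P, and nothing is read from the calls of these 6. Genes given by their mean ± SD alone, and AMMONIUM TRANSPORTER 1;2, were picked after their values were seen, to show further members of a family, whereas the other genes named follow a rule stated with the processing. The category is broad: beside carriers, channels and pumps it holds genes of vesicle traffic, chaperones and a few proteins that carry nothing, such as PROTON GRADIENT REGULATION 5.

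Membrane transporters move ions, nitrogen compounds, metals, water and metabolites across the plasma membrane, the tonoplast and the envelopes of plastids and mitochondria. Pumps and ABC transporters spend ATP, secondary carriers use the proton gradient that pumps build, and channels let solutes pass along their own gradient. In a leaf they take nutrients out of the xylem sap, load amino acids and other solutes into the phloem, and store or export defense compounds, while calcium channels and pumps shape the signals that follow pathogen or stress perception.

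The scion was in all cases Gaglioppo, clone Librandi CVT 80, on young vines of the same vineyard. The groups were GAG-41B (41B, V. vinifera × V. berlandieri), GAG-KOB (Kober 5BB, V. riparia × V. berlandieri), GAG-3309C (3309 Couderc, V. riparia × V. rupestris), GAG-17-37 (17-37 Mgt) and GAG-1103P (1103 Paulsen). The rootstocks of GAG-17-37 and GAG-1103P are both V. rupestris × V. berlandieri, and GAG-1103P served as the reference. Each had 3 libraries, A, B and C, and each library pooled 2 leaves from each of 3 vines, so that p-values measure the spread between such pools of 1 vineyard, and the place of the vines cannot be told apart from the rootstock. In a whole leaf, fewer cells of a type and less RNA per cell cannot be told apart.

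Levels are FPKM as deposited, that is fragments mapped, scaled for exon length and library size. The values hold no read counts, and read totals per library were not used here. The FPKM of all genes summed to between 2208240.1 and 2221125 in the GAG-41B libraries, and to between 1558965 and 1797627 in the others. Scaling every library to the same sum shifted the median difference between GAG-41B and GAG-1103P over all genes to -0.38 on the log2 scale, against 0 as deposited, and by -0.14 and -0.15 in the 2 comparisons of GAG-KOB below. Of the leaf markers looked at, PsaF and PsbO were abundant in every library (at least 355 FPKM), while 2 LHCB3 copies stayed between 0 and 3.12 FPKM and are no use as markers here. Replicate A lay apart from B and C: over the members its median was above theirs by 0.09 to 0.24 log2 units within the 5 combinations, against 0.01 to 0.02 over all genes.

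All 235 members passed the low-value limit, which was 0.1 FPKM averaged across the 15 libraries, and were in the fit of 21364 genes. Their average level was 1 FPKM or more for 212 and 100 FPKM or more for 36. For 2 members, the ABC transporter WBC19 (Vv13s0067g03750) and a diamide synthase (Vv02s0025g04790), that mean rested on 1 combination, since all others were under 0.1 FPKM. A single library or more was listed at 0 for 3 members. By the ratio of mean FPKM, 154 members passed the 4-fold limit in GAG-41B alone, 66 in GAG-41B and at least 1 other combination, 15 only outside GAG-41B, and 16 in all 4. The members nearest to the limit from inside were a DNAJ protein (Vv04s0023g03470, log2 ratio 2.01 in size), a transparent testa 12 protein (Vv12s0028g01160, 2.01) and a Ca2+-transporting ATPase (Vv00s0463g00030, 2.01). Just outside it, among the transport genes listed on part of the unplaced scaffolds, were a MATE gene (Vv00s0225g00060, 1.93) and the oligopeptide transporter OPT3 (Vv00s0259g00120, 1.42).

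Against GAG-1103P, the differences of mean log2(FPKM + 0.1) were at least 2 in size for 206 members in GAG-41B (150 higher, 56 lower), beside 14.6% of all genes tested (9.25% higher, 5.39% lower). With every library scaled to the same sum the number was 165 (103 higher, 62 lower). The other combinations had fewer: 50 members in GAG-KOB (47 higher, 3 lower, beside 4.59% of all genes, 3.56% higher and 1.03% lower), 25 in GAG-3309C (22 higher, 3 lower, beside 3.26%, 2.42% higher and 0.843% lower) and 18 in GAG-17-37 (18 higher, 0 lower, beside 2.57%, 1.76% higher and 0.805% lower). Nothing is read from these counts, since the rule used the same comparisons. Over the members of Cluster 1 the median difference was 2.58 in GAG-41B, 1.59 in GAG-KOB, 0.94 in GAG-3309C and 0.88 in GAG-17-37. Over those of Cluster 2 it was -2.35, -1.09, -0.39 and -0.39 in the same order. By their means, GAG-41B was highest for 149 members (beside 36.5% of all genes) and lowest for 63 (36.7%), while GAG-1103P was highest for 43 (28.9%) and lowest for 156 (28.8%). Both at once, GAG-41B highest and GAG-1103P lowest, held for 134 members, and the reverse for 42. The most common order, with 63 members of Cluster 1, was GAG-41B, GAG-KOB, GAG-3309C, GAG-17-37 and GAG-1103P, followed by 51 members with GAG-3309C and GAG-17-37 exchanged.

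**Figure D1:**
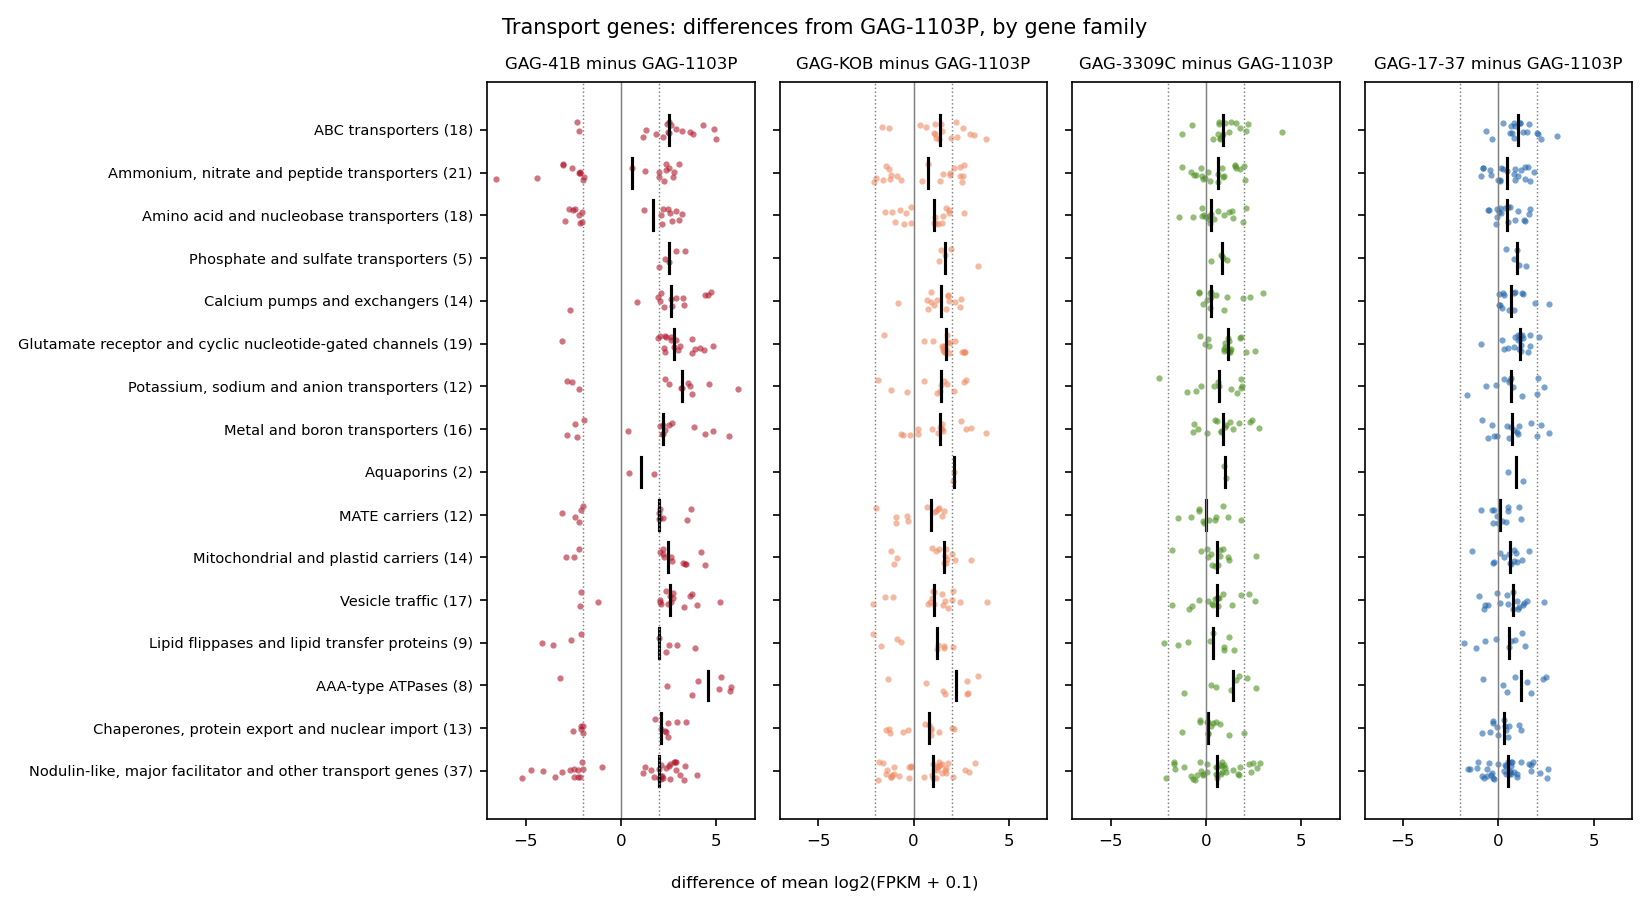
Difference of mean log2(FPKM + 0.1) from GAG-1103P (x axis, log2 units) for each of the 235 transport genes (points, spread vertically within a row) by gene family (rows, number of members in brackets), in GAG-41B, GAG-KOB, GAG-3309C and GAG-17-37. Black bars are family medians and dotted lines mark -2 and 2. GAG-41B has 206 points at or beyond the dotted lines, and GAG-17-37 has 18.

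The combinations between these extremes were compared with each other, a question that the choice of the members did not use directly. The members were still chosen for large differences among these same libraries, which favors calls here. Nothing is therefore read from their shares beside those of all genes. GAG-KOB differed from both GAG-17-37 and GAG-3309C in many members, whereas GAG-3309C and GAG-17-37 differed in few. In GAG-KOB vs. GAG-17-37, 165 of 235 members were called by limma at an adjusted p of 0.05 or less (70.2%), 123 higher and 42 lower, beside 33.3% of all genes tested (17.4% higher, 15.9% lower). The median difference was 0.55 over the members and -0.0018 over all genes. In GAG-KOB vs. GAG-3309C, 159 members were called (67.7%), 123 higher and 36 lower, beside 34.9% of all genes (18.7% higher, 16.2% lower), with a median of 0.47 over the members and -0.004 over all genes. In GAG-3309C vs. GAG-17-37, 54 members were called (23.0%), 23 higher and 31 lower, beside 16.9% of all genes (7.37% higher, 9.53% lower), with medians of 0.02 and 0. When this comparison was fitted on its own 6 libraries, 25 members were called (11 higher, 14 lower), beside 8.55% of all genes (3.54% higher, 5.01% lower).

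A 4-fold change of GAG-KOB, GAG-3309C or GAG-17-37 itself helped to choose 81 of the members, so the counts were also made over the 154 that passed the limit in GAG-41B alone. These 154 were also chosen for a large change in the same libraries, so their shares are a description too. Of these, 113 were called in GAG-KOB vs. GAG-17-37 (73.4%, 77 higher and 36 lower), beside 33.3% of all genes, and 109 in GAG-KOB vs. GAG-3309C (70.8%, 79 higher and 30 lower), beside 34.9%. In GAG-3309C vs. GAG-17-37, 31 were called (20.1%, 12 higher and 19 lower), which is near the 16.9% of all genes. The direction followed the 2 parts of the list. In Cluster 1, 121 members were higher and 1 lower in GAG-KOB than in GAG-17-37, and 118 were higher and 3 lower in GAG-KOB than in GAG-3309C. In Cluster 2, 2 were higher and 41 lower in the first of these comparisons, and 5 higher and 33 lower in the second. The parts were formed by the study from these same libraries, and the 2 comparisons share GAG-KOB. The counts by family below include members chosen with the help of a 4-fold change in a compared combination, so nothing is read from them. All of these counts stand beside the shares of all genes: 33.3% in GAG-KOB vs. GAG-17-37, 34.9% in GAG-KOB vs. GAG-3309C and 16.9% in GAG-3309C vs. GAG-17-37. In the last, MATE carriers (0%), glutamate receptors and cyclic nucleotide-gated channels (10.5%), amino acid and nucleobase transporters (11.1%), calcium pumps and exchangers (14.3%) and ABC transporters (16.7%) were under that share.

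**Figure D2:**
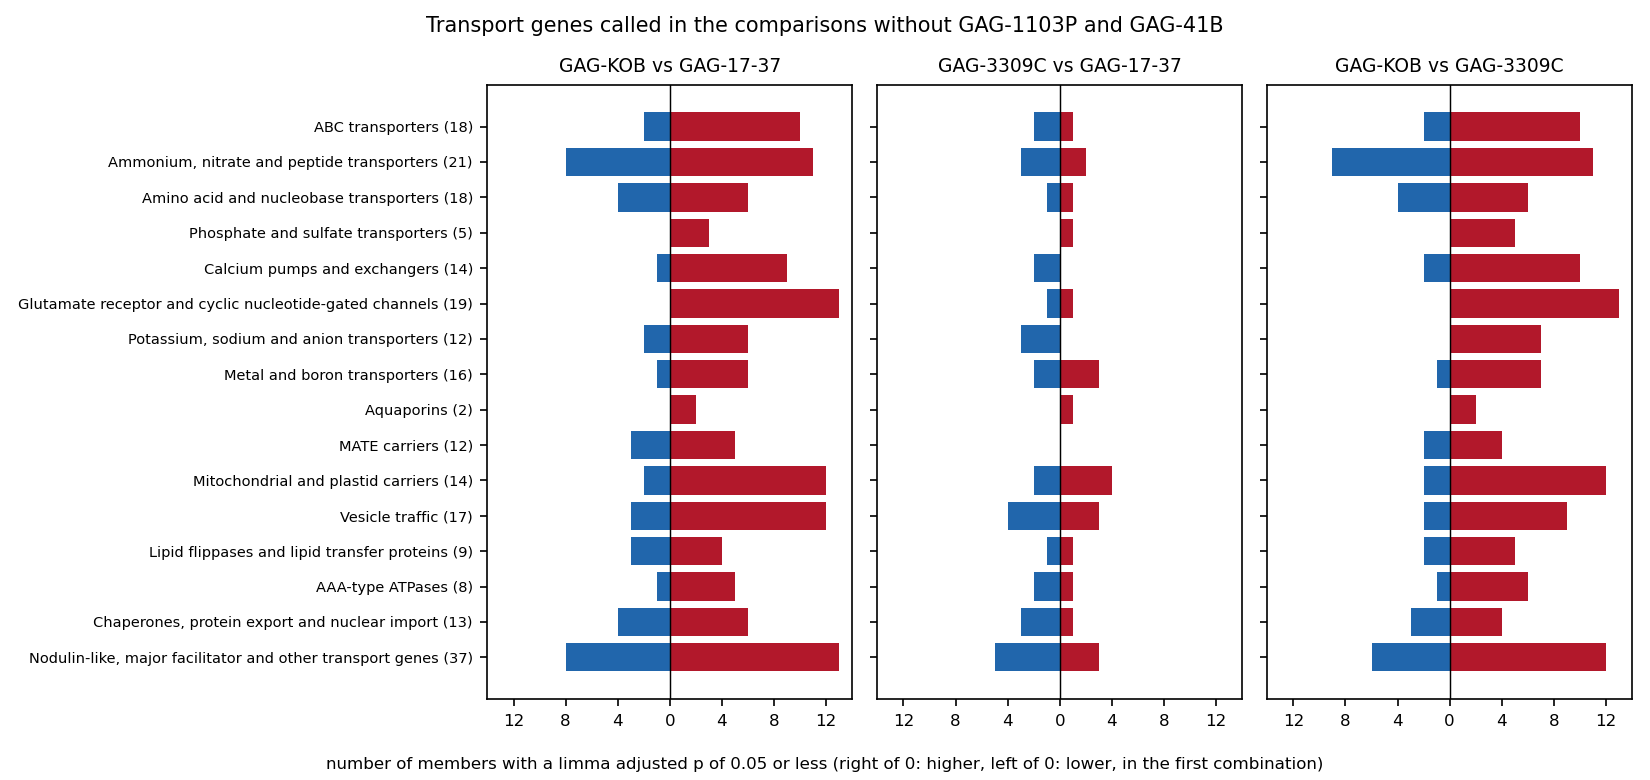
Number of members called at a limma adjusted p of 0.05 or less (x axis, genes) in each gene family (rows, number of members in brackets), for GAG-KOB vs. GAG-17-37, GAG-3309C vs. GAG-17-37 and GAG-KOB vs. GAG-3309C. Bars to the right of 0 count members higher, and bars to the left members lower, in the combination named first, and the total is 165, 54 and 159 members. Of all genes tested, 33.3%, 16.9% and 34.9% were called in the same order. The counts include members chosen with the help of a 4-fold change in a compared combination.

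Ammonium, nitrate and peptide transporters (21 members) were split between the 2 parts of the list, 11 in Cluster 1 and 10 in Cluster 2. Ammonium transporters of the AMT families take up ammonium at the plasma membrane, and nitrate enters through the NRT2 family and through members of the proton-dependent oligopeptide transport (POT) family, whose other members carry peptides. AMT1.1 (Vv05s0077g00030) was the most abundant of the family, with 434, 343 and 337 FPKM for GAG-41B, 255, 203 and 193 for GAG-KOB, 188, 116 and 100.2 for GAG-3309C and 168, 123 and 119.5 for GAG-17-37, against 83.3, 69.9 and 66.2 FPKM for GAG-1103P. The GAG-41B libraries were all above the rest and those of GAG-1103P all below, a log2 difference of 2.34, whereas GAG-3309C and GAG-17-37 overlapped. AMT1.1 was higher in GAG-KOB than in GAG-17-37 (log2 difference 0.67 ± 0.21, SE, adjusted p = 0.029, limma), a call lost when GAG-KOB A or B or GAG-17-37 B or C was left out, with the same FPKM sum or after quantile normalization.

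The 3 members annotated as AMMONIUM TRANSPORTER 2 were in Cluster 1 as well, and 2 of them are neighbours. One of these, Vv08s0058g00140, had 69.7, 66.3 and 62.6 FPKM for GAG-41B, 45.5, 41.7 and 40.3 for GAG-KOB, 31.5, 25 and 24.6 for GAG-3309C and 18.9, 15.3 and 14.3 for GAG-17-37, against 8.56, 7.85 and 7.23 FPKM for GAG-1103P. No combination overlapped with the next in this order, and the gene was higher in GAG-KOB than in GAG-3309C (log2 difference 0.66 ± 0.12, SE, adjusted p = 7.1e-04, limma) and in GAG-3309C than in GAG-17-37 (0.74 ± 0.12, SE, adjusted p = 7.7e-04). AMMONIUM TRANSPORTER 1;2 (Vv04s0043g00370) ran the other way, with 4.13, 3.37 and 4.93 FPKM for GAG-41B, 10.3, 7.74 and 8.23 for GAG-KOB, 24.8, 16.9 and 17.4 for GAG-3309C and 21.6, 19 and 17.2 for GAG-17-37, against 38, 30.9 and 33.2 FPKM for GAG-1103P. Its GAG-1103P libraries were above and its GAG-41B libraries below all others.

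The 4 members annotated as nitrate transporters differed in the combination that was highest. NITRATE TRANSPORTER2.5 (Vv01s0127g00070), a high-affinity carrier known in Arabidopsis from nitrogen-starved plants, had 211, 198 and 202 FPKM for GAG-41B, 305, 287 and 282 for GAG-KOB, 166, 136 and 137 for GAG-3309C and 172, 160.4 and 151 for GAG-17-37, against 53.2, 49.8 and 49.3 FPKM for GAG-1103P. All 3 GAG-KOB libraries were above the other 12, and the gene was higher in GAG-KOB than in GAG-17-37 (log2 difference 0.86 ± 0.07, SE, adjusted p = 3.0e-06, limma) and GAG-3309C (0.999 ± 0.07, SE, adjusted p = 6.3e-07). A gene annotated only as Nitrate transporter (Vv02s0154g00260) had 7.83, 6.91 and 5.41 FPKM for GAG-41B, 44.6, 39.4 and 39.4 for GAG-KOB, 29.9, 30.3 and 28.4 for GAG-3309C and 32.6, 27.8 and 30.04 for GAG-17-37, against 31.7, 30.5 and 29.3 FPKM for GAG-1103P. Here GAG-KOB was highest and GAG-41B far below, while GAG-3309C, GAG-17-37 and GAG-1103P overlapped, and the call of GAG-KOB against GAG-17-37 (0.45 ± 0.11, SE, adjusted p = 0.0074) was lost with the same FPKM sum. NITRATE TRANSPORTER 1:2 was listed in both parts: Vv10s0003g02030, in Cluster 1, had 47, 44.4 and 43.7 FPKM for GAG-41B, 15.6, 14.1 and 15.1 for GAG-KOB, 7.74, 7.90 and 7.90 for GAG-3309C and 9.29, 9.06 and 9.22 for GAG-17-37, against 8.67, 9.13 and 8.40 FPKM for GAG-1103P. It was highest in GAG-41B and lowest, below the other 12 libraries, in GAG-3309C. Vv01s0026g01570, in Cluster 2, averaged 13 ± 0.590 FPKM in GAG-41B and 77.1 ± 4.37 in GAG-1103P (SD, n = 3).

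The POT genes held the widest range of the family. Vv08s0040g00830 had the most negative GAG-41B difference of the whole list (-6.54), with 0.453, 0.195 and 0.114 FPKM for GAG-41B, 7.92, 6.88 and 6.40 for GAG-KOB, 16.3, 11 and 11.1 for GAG-3309C and 18.4, 14 and 15.3 for GAG-17-37, against 34.1, 29.6 and 27.4 FPKM for GAG-1103P. It was close to 0 in GAG-41B and highest in GAG-1103P, with GAG-KOB between GAG-41B and the others. Vv13s0067g02340 was instead highest in GAG-KOB, with 26.1, 23 and 21.5 FPKM, against 6.95, 4.33 and 4.03 for GAG-3309C and 10.5, 9.27 and 9.53 for GAG-17-37. It came into the list through GAG-KOB alone, so that its GAG-KOB levels are given without a test. Vv14s0066g02020 had 0.707, 0.541 and 0.517 FPKM in GAG-KOB, against 5.35, 3.41 and 3.20 in GAG-3309C, where it was highest. Among called members averaging 1 FPKM or more without overlap, it had the most negative change in GAG-KOB vs. GAG-3309C (-2.54 ± 0.23, SE, adjusted p = 3.2e-06, limma) and in GAG-KOB vs. GAG-17-37 (-2.06 ± 0.23, SE, adjusted p = 2.4e-05). Another POT gene, Vv01s0026g01490, had 1.097, 1.39 and 1.40 FPKM in GAG-KOB and 4.28, 3.40 and 3.63 in GAG-17-37 (-1.47 ± 0.17, SE, adjusted p = 2.3e-05). Of the other POT genes, Vv01s0011g03400 averaged 5.13 ± 1.13 FPKM in GAG-41B and 108 ± 4.87 in GAG-1103P (SD, n = 3), and the neighbours Vv08s0007g01310 and Vv08s0007g01320 averaged 82.7 ± 8.79 and 45.1 ± 4.19 FPKM in GAG-41B, and 12 ± 1.099 and 6.68 ± 0.0855 in GAG-1103P. Over the family, 11 members were called higher and 8 lower in GAG-KOB vs. GAG-17-37, 11 higher and 9 lower in GAG-KOB vs. GAG-3309C, and 2 higher and 3 lower in GAG-3309C vs. GAG-17-37.

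**Figure D3:**
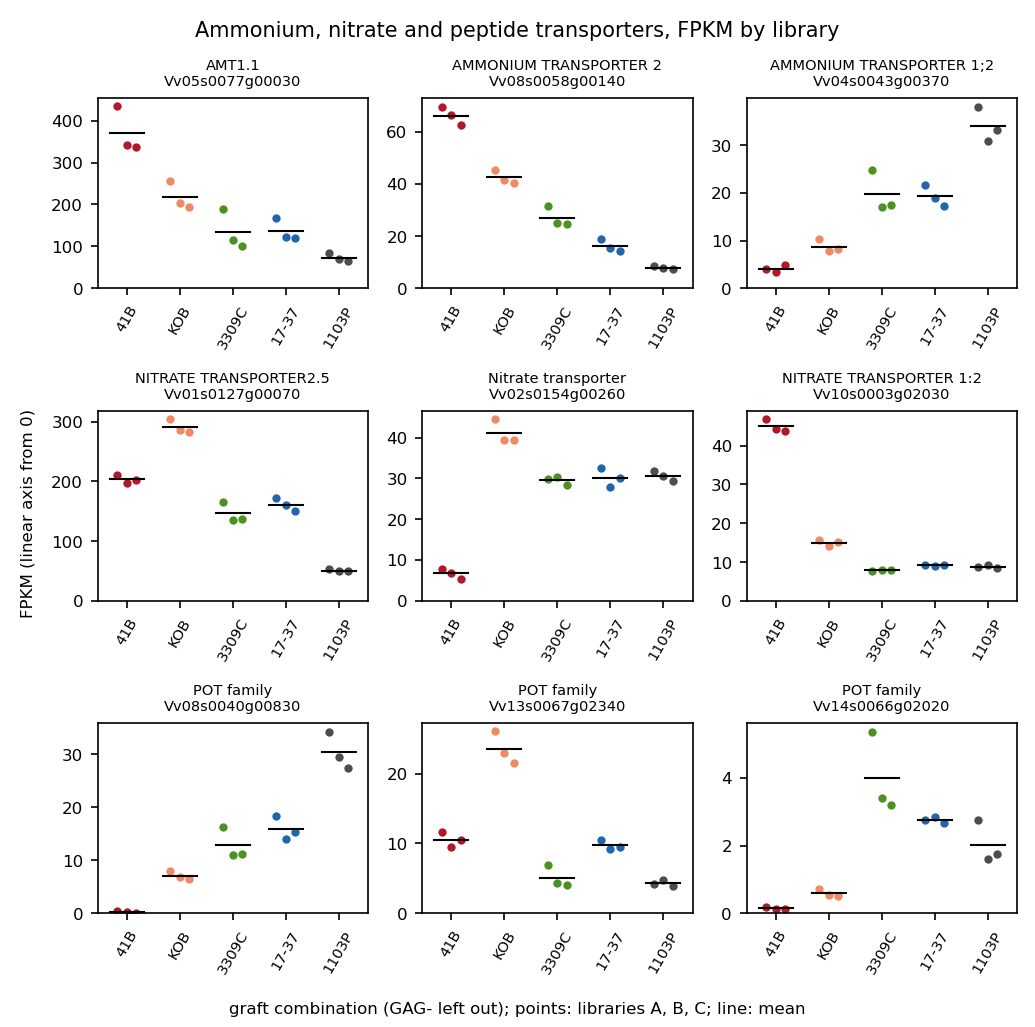
FPKM (y axes, linear, from 0) of 9 ammonium, nitrate and peptide transporter genes in the 3 libraries (points A, B and C) of each combination (x axis), with the mean as a line. NITRATE TRANSPORTER2.5, the gene annotated as Nitrate transporter and POT gene Vv13s0067g02340 are highest in GAG-KOB, and POT gene Vv08s0040g00830 lies under 0.5 FPKM in GAG-41B and at 27.4 FPKM or more in GAG-1103P.

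Amino acid and nucleobase transporters (18 members, 10 in Cluster 1 and 8 in Cluster 2) move organic nitrogen between cells and into the phloem. CATIONIC AMINO ACID TRANSPORTER 1 (Vv10s0003g04540), a carrier of basic amino acids, was the most abundant, with 1124, 929.8 and 919.6 FPKM for GAG-41B, 567, 448 and 444 for GAG-KOB, 275, 188 and 176 for GAG-3309C and 289, 234 and 233 for GAG-17-37, against 155, 128 and 124 FPKM for GAG-1103P. GAG-41B stood above GAG-KOB, and GAG-KOB above the other 3 combinations, with a log2 difference of 0.95 ± 0.17, SE, adjusted p = 7.6e-04 from GAG-17-37 (limma). An amino acid permease (Vv01s0011g04210) had the largest GAG-41B difference of the family, 3.18, with 552, 494 and 506 FPKM in GAG-41B and 62, 55.3 and 54.3 in GAG-1103P, and was higher in GAG-KOB than in GAG-3309C (1.30 ± 0.07, SE, adjusted p = 2.8e-08). LYSINE HISTIDINE TRANSPORTER 1, known from Arabidopsis leaves for the uptake of amino acids from the apoplast, was present with a copy in each part. The copy in Cluster 1 (Vv06s0061g01210) averaged 505 ± 26.8 FPKM in GAG-41B and 117 ± 5.76 in GAG-1103P, and that in Cluster 2 (Vv13s0074g00540) 0.276 ± 0.101 and 1.42 ± 0.246 (SD, n = 3 each).

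Among the genes that were lower in GAG-41B, purine permease 1 (Vv18s0001g06940), of a family that carries purine bases and in Arabidopsis also cytokinins, had 10.5, 8.54 and 8.19 FPKM for GAG-41B, 36.3, 30.2 and 28.9 for GAG-KOB, 63.8, 67.3 and 57.4 for GAG-3309C and 88.5, 71 and 70.2 for GAG-17-37, against 79.6, 66.3 and 61.1 FPKM for GAG-1103P. GAG-17-37 and GAG-1103P overlapped, GAG-KOB was lower than both, and GAG-KOB vs. GAG-17-37 gave -1.27 ± 0.13, SE, adjusted p = 1.3e-05 (limma). A further amino acid permease (Vv19s0027g01890) was highest in GAG-3309C and had 1.09, 1.12 and 1.24 FPKM for GAG-41B and 8.89, 10.2 and 10.2 for GAG-3309C, against 8.51, 8.38 and 7.62 FPKM for GAG-1103P. It was lower in GAG-KOB than in GAG-3309C (-0.76 ± 0.13, SE, adjusted p = 5.5e-04). The xanthine/uracil permease (Vv13s0067g02500) and Ureide permease 2 (Vv01s0011g00530), carriers of nucleobases and ureides, averaged 559 ± 20.3 and 133 ± 8.86 FPKM in GAG-41B, and 103 ± 9.53 and 22.4 ± 3.19 in GAG-1103P (SD, n = 3 each). The gamma-aminobutyric acid transporter (Vv13s0074g00570) was highest in GAG-3309C, with 98 ± 15.5 FPKM, and averaged 23 ± 1.54 in GAG-1103P. By its means it passed the limit of the study's list in GAG-3309C alone, so the choice of the members favors this high level. The family had 6 members called higher and 4 lower in GAG-KOB vs. GAG-17-37, and the same numbers in GAG-KOB vs. GAG-3309C, and 1 in each direction in GAG-3309C vs. GAG-17-37. Both GAG-KOB comparisons gave 55.6% of the family, beside 33.3% and 34.9% of all genes. The last gave 11.1%, under the 16.9% of all genes.

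All 5 phosphate and sulfate transporters were in Cluster 1. Inorganic phosphate transporter 1-4 (Vv05s0049g00930), a proton symporter of the PHT1 family, was the most abundant and had 105, 87.7 and 92.7 FPKM for GAG-41B, 43.1, 36.6 and 33.5 for GAG-KOB, 27.1, 17.1 and 18 for GAG-3309C and 21.8, 16.3 and 16.9 for GAG-17-37, against 10.3, 8.93 and 8.94 FPKM for GAG-1103P. The second most abundant, Inorganic phosphate transporter Vv18s0122g00780, had the smallest GAG-41B difference (2.003) and was called in each of the 3 tested comparisons, with 0.92 ± 0.11, SE, adjusted p = 3.1e-05 in GAG-KOB vs. GAG-17-37 (limma); the call in GAG-3309C vs. GAG-17-37 was lost without GAG-17-37 C or in a fit of the 6 libraries alone. Both had the same order of combination means, GAG-41B, GAG-KOB, GAG-3309C, GAG-17-37 and GAG-1103P. Sulfate transporter 3.1 (Vv05s0020g03930) was highest in GAG-KOB, with 1.94, 1.95 and 1.42 FPKM for GAG-41B, 2.87, 2.31 and 2.35 for GAG-KOB, 0.604, 0.253 and 0.305 for GAG-3309C and 0.240, 0.361 and 0.457 for GAG-17-37, against 0.190, 0.144 and 0.128 FPKM for GAG-1103P. Among called members averaging 1 FPKM or more without overlap, it had the largest positive change in GAG-KOB vs. GAG-17-37 (2.55 ± 0.27, SE, adjusted p = 1.6e-05, limma), at a low level in all libraries. Of the 5 members, 3 were higher in GAG-KOB than in GAG-17-37, all 5 were higher in GAG-KOB than in GAG-3309C, and 1 was higher in GAG-3309C than in GAG-17-37.

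Calcium pumps and exchangers (14 members) remove calcium from the cytosol. In Cluster 1 were 13 of them, and GAG-41B was the highest combination for 11. The gene annotated as sodium-inducible calcium-binding protein ACP1 (Vv05s0077g00810), a calcium sensor by name rather than a pump, was by far the most abundant and had 2310.0, 2465 and 2427 FPKM for GAG-41B, 394, 433 and 414 for GAG-KOB, 137, 129.5 and 127 for GAG-3309C and 134, 133 and 138 for GAG-17-37, against 84.4, 90.9 and 99.8 FPKM for GAG-1103P. Its log2 differences from GAG-1103P were 4.71 in GAG-41B and 2.17 in GAG-KOB, and GAG-KOB was above GAG-17-37 by 1.61 ± 0.06, SE, adjusted p = 4.9e-09 (limma). Autoinhibited Ca2+-ATPases of the ACA type pump calcium out through the plasma membrane or into vacuoles. Of the ACA13 genes, 5 are neighbours, and the first of them, Vv05s0020g04280, had 49.2, 52.5 and 53.4 FPKM for GAG-41B, 12.1, 12.2 and 11.2 for GAG-KOB, 2.302, 1.79 and 1.65 for GAG-3309C and 3.83, 4.13 and 3.59 for GAG-17-37, against 2.04, 2.0002 and 2.26 FPKM for GAG-1103P. GAG-41B and GAG-KOB were far apart from the rest, and GAG-3309C overlapped with GAG-1103P. Among called members averaging 1 FPKM or more without overlap, the gene gave the largest positive change in GAG-KOB vs. GAG-3309C (2.58 ± 0.11, SE, adjusted p = 5.3e-09, limma).

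The other ACA13 gene named, Vv05s0020g04300, was lowest in GAG-3309C, with 1.16, 1.33 and 1.02 FPKM, against 1.74, 1.57 and 1.53 in GAG-17-37 (-0.44 ± 0.12, SE, adjusted p = 0.021, limma, lost without GAG-3309C C, without GAG-17-37 A, without all A libraries or in a fit of the 6 libraries alone). Of the exchangers, CAX3 (Vv06s0004g06570), a proton-driven calcium carrier of the tonoplast, had 3.58, 3.57 and 3.81 FPKM for GAG-41B, 4.79, 3.92 and 4.33 for GAG-KOB, 6.94, 5.81 and 5.44 for GAG-3309C and 5.16, 4.17 and 5.41 for GAG-17-37, against 0.759, 0.744 and 0.557 FPKM for GAG-1103P. It was higher in all 4 combinations than in GAG-1103P and highest in GAG-3309C, and lower in GAG-KOB than in GAG-3309C (-0.47 ± 0.14, SE, adjusted p = 0.022, lost without GAG-KOB B or C, without GAG-3309C A, without all A libraries or in a fit of the 6 libraries alone). Calcium exchanger 5 (Vv19s0015g01320), the only member of Cluster 2 in the family, had 0.996, 0.825 and 1.34 FPKM in GAG-41B and 6.78, 7.07 and 7.36 in GAG-1103P. Of the remaining pumps, ACA12 (Vv00s0179g00260) averaged 209.8 ± 5.67 FPKM in GAG-41B and 28.1 ± 1.21 in GAG-1103P (SD, n = 3), and ACA11 (Vv13s0158g00360), in Arabidopsis a pump of the tonoplast, 4.78 ± 0.863 FPKM in GAG-3309C, its highest level, and 1.15 ± 0.0998 in GAG-1103P. In GAG-KOB vs. GAG-17-37, 9 members of the family were called higher and 1 lower, in GAG-KOB vs. GAG-3309C 10 higher and 2 lower, and in GAG-3309C vs. GAG-17-37 0 higher and 2 lower. The last was 14.3% of the family, under the 16.9% of all genes.

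Glutamate receptors and cyclic nucleotide-gated channels (19 members) let calcium and other cations enter the cytosol and take part in wound and pathogen signaling. With 1 exception, annexin A3, all were in Cluster 1, and GAG-41B was the highest combination for 18. The most abundant was cyclic nucleotide-binding transporter 1 (Vv17s0053g00810), the first of 4 neighbours with this annotation, with 68.3, 81.3 and 75.9 FPKM for GAG-41B, 29.1, 33.5 and 35.9 for GAG-KOB, 21, 25.8 and 24.2 for GAG-3309C and 19.1, 20.8 and 24 for GAG-17-37, against 9.80, 8.56 and 10.2 FPKM for GAG-1103P. GAG-3309C and GAG-17-37 overlapped, and GAG-KOB was above both (0.62 ± 0.11, SE, adjusted p = 9.9e-04 against GAG-17-37, limma). The 3 other copies averaged 63.3, 41.1 and 53.4 FPKM in GAG-41B, and 7.51, 6.04 and 7.16 in GAG-1103P.

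Of the glutamate receptor genes, Vv19s0014g01760 (glutamate receptor 2.8) had the largest GAG-41B difference, 4.83, with 7.16, 6.44 and 6.81 FPKM for GAG-41B, 1.59, 1.83 and 1.14 for GAG-KOB, 1.68, 1.33 and 1.04 for GAG-3309C and 1.11, 0.850 and 0.942 for GAG-17-37, against 0.155, 0.160 and 0.114 FPKM for GAG-1103P. Its call in GAG-KOB vs. GAG-17-37 was weak (0.59 ± 0.20, SE, adjusted p = 0.039, limma). It was lost when GAG-KOB A or B, GAG-17-37 B or C, GAG-3309C B or GAG-41B C was left out, and under 4 of the other settings. Glutamate receptor 3.4 (Vv10s0003g00780) averaged 15.1 ± 1.92 FPKM in GAG-41B and 2.37 ± 0.225 in GAG-1103P (SD, n = 3). Annexin A3 (Vv08s0032g00300), which binds membranes in the presence of calcium and is not a channel by name, had 0.930, 0.627 and 0.0874 FPKM in GAG-41B and 3.42, 4.73 and 4.80 in GAG-1103P. Across the family, 13 members were higher and 0 lower in GAG-KOB than in GAG-17-37, 13 higher and 0 lower in GAG-KOB than in GAG-3309C, and 1 higher and 1 lower in GAG-3309C than in GAG-17-37. With 2 tested contrasts that share GAG-KOB, these are not 2 independent counts. In GAG-3309C vs. GAG-17-37 the share called, 10.5%, was under the 16.9% of all genes.

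Potassium, sodium and anion transporters (12 members) set the ion balance and the turgor of leaf cells. The 2-pore K channel KCO1 (Vv19s0015g00320), a potassium channel of the tonoplast in Arabidopsis, was the most abundant, with 402, 375 and 381 FPKM for GAG-41B, 114, 103 and 105 for GAG-KOB, 49.2, 48.2 and 51.7 for GAG-3309C and 47.1, 46.3 and 46.4 for GAG-17-37, against 32.7, 31.8 and 31 FPKM for GAG-1103P. GAG-41B was above GAG-KOB and GAG-KOB above the other 3 (1.20 ± 0.05, SE, adjusted p = 7.0e-09 against GAG-17-37, limma). The gene annotated as Aluminium-tolerance ALMT1 (Vv06s0080g00170), of a family of anion channels that carry malate, had the most positive GAG-41B difference of the whole list, 6.12. It had 28.1, 25.6 and 29 FPKM for GAG-41B, 1.29, 0.893 and 0.732 for GAG-KOB, 0.304, 0.271 and 0.136 for GAG-3309C and 0.612, 0.207 and 0.424 for GAG-17-37, against 0.296, 0.321 and 0.275 FPKM for GAG-1103P, so that GAG-41B stood alone. The potassium transporter KUP1 (Vv00s0125g00190) had 86.6, 79.8 and 75.4 FPKM in GAG-41B, 41, 37.9 and 34.7 in GAG-KOB and 10.5, 7.67 and 7.90 in GAG-1103P. HAK5 (Vv07s0104g01730) and CHX20 (Vv08s0007g00030), also potassium carriers, averaged 11.2 ± 0.146 and 84.2 ± 1.55 FPKM in GAG-41B, and 0.886 ± 0.125 and 9.39 ± 0.283 in GAG-1103P (SD, n = 3 each).

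Of the 3 members of Cluster 2 in this family, 2 were highest in GAG-1103P and 1 in GAG-17-37. Chloride channel protein B (Vv14s0068g02190) had 1.14, 1.29 and 1.09 FPKM for GAG-41B, 2.43, 2.55 and 2.26 for GAG-KOB, 1.67, 1.38 and 1.63 for GAG-3309C and 3.01, 2.33 and 3.20 for GAG-17-37, against 8.93, 9.27 and 8.65 FPKM for GAG-1103P. All 4 combinations were far below GAG-1103P, and GAG-3309C was below GAG-17-37 (-0.82 ± 0.13, SE, adjusted p = 8.2e-04, limma). The organic cation transport protein OCT1 (Vv17s0119g00080) was highest in GAG-17-37, with 5.10, 3.99 and 4.67 FPKM, against 2.70, 2.78 and 3.50 in GAG-1103P, and lower in GAG-KOB (-0.96 ± 0.19, SE, adjusted p = 0.0017) and GAG-3309C (-1.11 ± 0.19, SE, adjusted p = 0.0013) than in GAG-17-37. KCO5 (Vv07s0005g02700), a further potassium channel, averaged 2.46 ± 0.190 FPKM in GAG-41B and 15.2 ± 1.39 in GAG-1103P (SD, n = 3). The anion channel homologue SLAH1 (Vv12s0059g00860) averaged 3.78 ± 1.28 FPKM in GAG-41B and stayed under 1 FPKM on average in the other 4. In the family, 6 members were called higher and 2 lower in GAG-KOB vs. GAG-17-37, 7 higher and 0 lower in GAG-KOB vs. GAG-3309C, and 0 higher and 3 lower in GAG-3309C vs. GAG-17-37.

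Metal and boron transporters (16 members, 12 in Cluster 1) were led by the zinc transporter ZIP5 (Vv03s0017g02170), which had 1642, 1467 and 1502 FPKM for GAG-41B, 984, 906 and 916 for GAG-KOB, 630.2, 572 and 581 for GAG-3309C and 637, 578 and 575 for GAG-17-37, against 377, 327 and 322 FPKM for GAG-1103P. GAG-3309C and GAG-17-37 overlapped. Boron transporter-like protein 4 (Vv09s0002g05810), of the BOR family that exports borate, had 893, 846 and 834 FPKM for GAG-41B, 252, 233 and 228 for GAG-KOB, 88.3, 89.9 and 87.6 for GAG-3309C and 73.1, 68.9 and 66.2 for GAG-17-37, against 17.6, 15.9 and 16.6 FPKM for GAG-1103P. No 2 combinations overlapped, its difference was 5.67 in GAG-41B, and it was called in all 3 tested comparisons, with 1.77 ± 0.05, SE, adjusted p = 9.9e-10 in GAG-KOB vs. GAG-17-37 and 0.35 ± 0.05, SE, adjusted p = 6.4e-04 in GAG-3309C vs. GAG-17-37 (limma). Boron transporter-like protein 1 (Vv07s0005g02060), in Arabidopsis the carrier that loads boron into the xylem, went against it. It had 1.16, 0.862 and 1.31 FPKM for GAG-41B, 8.03, 7.52 and 7.33 for GAG-KOB, 9.83, 9.79 and 9.19 for GAG-3309C and 13.4, 11.9 and 12.6 for GAG-17-37, against 6.24, 6.29 and 6.59 FPKM for GAG-1103P, with GAG-17-37 above and GAG-41B below all other libraries.

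The metal transporter Nramp6 (Vv00s0218g00100) was lower in GAG-41B, with 0.652, 0.376 and 0.871 FPKM, against 5.33, 4.83 and 4.35 in GAG-1103P. The zinc transporter ZIP2 (Vv06s0004g05070) and a copper-binding family protein (Vv10s0003g01220) averaged 101 ± 2.57 and 21.9 ± 1.91 FPKM in GAG-41B, and 4.63 ± 0.318 and 0.895 ± 0.631 in GAG-1103P (SD, n = 3 each). Copper transporter 2 (Vv03s0110g00360) averaged 9.84 ± 3.98 FPKM in GAG-41B, 14.3 ± 2.82 in GAG-KOB, 14.1 ± 2.72 in GAG-3309C and 13 ± 1.61 in GAG-17-37, and 1.99 ± 0.204 in GAG-1103P. Over the family, 6 members were called higher and 1 lower in GAG-KOB vs. GAG-17-37, 7 higher and 1 lower in GAG-KOB vs. GAG-3309C, and 3 higher and 2 lower in GAG-3309C vs. GAG-17-37. The first was 43.8% of the family, beside 33.3% of all genes.

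Both aquaporins of the list carry the annotation Aquaporin TMP-C, a name of plasma membrane water channels. They did not follow the common order, and GAG-KOB was highest for both. Vv15s0046g02420 had 167, 174 and 172 FPKM for GAG-41B, 531, 559 and 554 for GAG-KOB, 277, 244 and 238 for GAG-3309C and 184, 189 and 189 for GAG-17-37, against 125, 133 and 132 FPKM for GAG-1103P, and Vv13s0067g00220 had 89.3, 90.5 and 90.2 FPKM for GAG-41B, 109, 125 and 129 for GAG-KOB, 52.2, 56.6 and 62.3 for GAG-3309C and 64.2, 69.98 and 70.9 for GAG-17-37, against 29.8, 28.8 and 24.5 FPKM for GAG-1103P. For both genes all GAG-KOB libraries were above and all GAG-1103P libraries below the other 12. In GAG-41B vs. GAG-1103P they differed by 0.39 and 1.70 on the log2 scale, and in GAG-KOB vs. GAG-1103P by 2.08 and 2.12. Both came into the list through GAG-KOB alone, so its levels are given without a test.

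ABC transporters (18 members, 16 in Cluster 1) spend ATP to move hormones, lipids, terpenoids and phenolics. Of the 7 annotated as PDR12 or as a pleiotropic drug resistance protein, of the G family in which Arabidopsis PDR12 carries abscisic acid, all lie in 2 neighbouring runs. Vv09s0002g05600 was the most abundant ABC gene, with 2072, 2238 and 2159.8 FPKM for GAG-41B, 863, 861 and 804 for GAG-KOB, 765, 650.4 and 647 for GAG-3309C and 667, 649 and 661 for GAG-17-37, against 368, 369 and 386 FPKM for GAG-1103P. GAG-41B and GAG-KOB were above the rest, and GAG-3309C overlapped with GAG-17-37. Vv09s0002g05490 had the largest GAG-41B difference among the ABC genes at 1 FPKM or more, 4.99, with 29.2, 28.9 and 29.2 FPKM in GAG-41B and 0.821, 0.751 and 0.878 in GAG-1103P. A copy between them, Vv09s0002g05560, was highest in GAG-3309C and had 46.7, 49.9 and 49.9 FPKM for GAG-41B, 53.7, 51 and 49.4 for GAG-KOB, 111, 99.9 and 105 for GAG-3309C and 56.6, 54.7 and 54.7 for GAG-17-37, against 6.23, 6.48 and 6.77 FPKM for GAG-1103P. It was higher in GAG-3309C than in GAG-17-37 (0.92 ± 0.05, SE, adjusted p = 3.1e-07, limma), while GAG-41B, GAG-KOB and GAG-17-37 were close to each other.

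ABC transporter G member 7 (Vv03s0017g01300) had 2.70, 2.19 and 2.27 FPKM for GAG-41B, 2.73, 2.16 and 2.51 for GAG-KOB, 0.439, 0.440 and 0.466 for GAG-3309C and 0.474, 0.698 and 0.782 for GAG-17-37, against 0.0764, 0.0694 and 0.0991 FPKM for GAG-1103P. GAG-41B and GAG-KOB overlapped, both above the rest, and GAG-KOB vs. GAG-3309C gave 2.22 ± 0.19, SE, adjusted p = 1.6e-06 (limma). Its neighbour Vv03s0017g01280, of the same annotation, averaged 341 ± 11.7 FPKM in GAG-41B and 58.7 ± 3.64 in GAG-1103P (SD, n = 3). ABC transporter B member 13 (Vv07s0005g02660), of the family that in Arabidopsis includes auxin carriers, averaged 323 ± 9.34 FPKM in GAG-41B and 35.4 ± 0.561 in GAG-1103P, and the multidrug resistance-associated protein 3 (Vv19s0015g00050), of the vacuolar C family, 113 ± 2.44 FPKM in GAG-41B and 20.04 ± 0.752 in GAG-1103P. Of the 2 members lower in GAG-41B, ABC transporter G member 3 (Vv01s0011g02730) had 1.40, 1.16 and 1.13 FPKM for GAG-41B, 1.95, 2.22 and 1.76 for GAG-KOB, 3.70, 2.31 and 2.15 for GAG-3309C and 4.96, 5.02 and 5.15 for GAG-17-37, against 6.13, 6.87 and 6.17 FPKM for GAG-1103P. Over the family, 10 members were called higher and 2 lower both in GAG-KOB vs. GAG-17-37 and in GAG-KOB vs. GAG-3309C, and 1 higher and 2 lower in GAG-3309C vs. GAG-17-37. The last was 16.7% of the family, near the 16.9% of all genes.

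MATE carriers (12 members) exchange protons or sodium for organic compounds, among them flavonoids and citrate. They were divided, 7 in Cluster 1 and 5 in Cluster 2. The most abundant, Vv16s0050g00930, was lower in GAG-41B and had 103, 82.9 and 83.3 FPKM for GAG-41B, 228, 185 and 187 for GAG-KOB, 348, 337 and 322 for GAG-3309C and 348, 306 and 279.7 for GAG-17-37, against 445, 351 and 347 FPKM for GAG-1103P. GAG-KOB lay between GAG-41B and the rest (-0.64 ± 0.12, SE, adjusted p = 0.0014 against GAG-17-37, limma). Vv02s0025g04420 went the other way, with 119, 95.5 and 99.6 FPKM in GAG-41B, 29.2, 22.5 and 21.1 in GAG-KOB and 11.7, 8.63 and 8.46 in GAG-1103P. TRANSPARENT TESTA 12, in Arabidopsis a vacuolar carrier of flavonoid precursors of the seed coat, was annotated for 3 members with both directions. Vv12s0028g01150 had 2.58, 2.10 and 2.14 FPKM in GAG-41B, against 22.2, 20.5 and 17.7 in GAG-1103P, and the other 3 combinations were between 15.01 and 21 FPKM. Of the family, 5 were called higher and 3 lower in GAG-KOB vs. GAG-17-37, and 4 higher and 2 lower in GAG-KOB vs. GAG-3309C. None was called in GAG-3309C vs. GAG-17-37 by limma, beside 16.9% of all genes, with 2 members at an unadjusted p of 0.05 or less.

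Mitochondrial and plastid carriers (14 members, 11 in Cluster 1) were among the most abundant, with a median over members of 143 FPKM. The ADP,ATP carrier protein (Vv06s0004g01910), which exchanges ATP made in mitochondria for cytosolic ADP, had 2133, 1928 and 1880.1 FPKM for GAG-41B, 1056, 962 and 953 for GAG-KOB, 851, 700.1 and 692 for GAG-3309C and 607, 552 and 536 for GAG-17-37, against 347, 305 and 305 FPKM for GAG-1103P. The mitochondrial phosphate transporter (Vv14s0068g01250) had 1488, 1532 and 1518 FPKM for GAG-41B, 683, 629 and 682 for GAG-KOB, 591, 461 and 470.4 for GAG-3309C and 265, 267 and 226 for GAG-17-37, against 77.7, 88.7 and 82.4 FPKM for GAG-1103P. In both, the combinations followed the order GAG-41B, GAG-KOB, GAG-3309C, GAG-17-37 and GAG-1103P without overlap between neighbours, and the second was higher in GAG-3309C than in GAG-17-37 by 1.002 ± 0.09, SE, adjusted p = 1.4e-05 (limma). The 2-oxoglutarate/malate carrier (Vv18s0001g07320), which moves dicarboxylates out of mitochondria, had 588, 602 and 595 FPKM for GAG-41B, 189.8, 194 and 191 for GAG-KOB, 68.2, 63.9 and 59.5 for GAG-3309C and 49.9, 50.3 and 47 for GAG-17-37, against 59.4, 59.3 and 57.2 FPKM for GAG-1103P. It was lowest in GAG-17-37, below the other 12 libraries, and had the smallest p-value of any member in GAG-KOB vs. GAG-17-37 (1.96 ± 0.05, SE, adjusted p = 3.3e-10).

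The plastidic phosphate translocator protein2 (Vv08s0007g01690) had the largest GAG-41B difference of these carriers, 4.38, with 340.0, 269 and 289 FPKM in GAG-41B and 14.9, 13.2 and 14.5 in GAG-1103P. A mitochondrial substrate carrier of Cluster 2 (Vv08s0058g00450) had 19.9, 17.8 and 13.6 FPKM for GAG-41B and 35.6, 35.6 and 35.1 for GAG-3309C, against 132, 117 and 123 FPKM for GAG-1103P. All 14 members were called in GAG-KOB vs. GAG-17-37 (12 higher, 2 lower) and all 14 in GAG-KOB vs. GAG-3309C (12 higher, 2 lower), and 4 were higher and 2 lower in GAG-3309C vs. GAG-17-37, beside 33.3%, 34.9% and 16.9% of all genes. These counts did not hold under every setting. The substrate carrier Vv08s0058g00450 was not called in GAG-KOB vs. GAG-17-37 with the same FPKM sum or without GAG-KOB A or C or GAG-17-37 B or C, and the ADP,ATP carrier and the phosphate transporter were not called in GAG-KOB vs. GAG-3309C with the same FPKM sum.

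Genes of vesicle traffic (17 members, 14 in Cluster 1) tether and fuse vesicles with their target membranes. The SNARE protein SNAP30 (Vv17s0000g06860) was the most abundant, with 1679, 1801 and 1789 FPKM for GAG-41B, 851, 919 and 925 for GAG-KOB, 582, 719.9 and 692 for GAG-3309C and 571, 636 and 614 for GAG-17-37, against 408, 450.1 and 421 FPKM for GAG-1103P. EXO70 H2 (Vv00s0317g00140), a subunit of the exocyst that tethers vesicles at the plasma membrane, had 96.1, 90.8 and 88 FPKM for GAG-41B, 37.6, 35.8 and 34.6 for GAG-KOB, 18.1, 14.1 and 12.5 for GAG-3309C and 14, 12.7 and 11.8 for GAG-17-37, against 2.88, 2.001 and 2.39 FPKM for GAG-1103P. In both genes GAG-3309C overlapped with GAG-17-37 and GAG-KOB was above them, by 1.48 ± 0.14, SE, adjusted p = 4.7e-06 for EXO70 H2 in GAG-KOB vs. GAG-17-37 (limma). The exocyst subunits EXO70 H4 (Vv08s0040g02730) and EXO70 H7 (Vv06s0004g04010) averaged 88 ± 5.501 and 224 ± 21.2 FPKM in GAG-41B, and 5.44 ± 0.413 and 18.3 ± 2.18 in GAG-1103P (SD, n = 3 each). A syntaxin (Vv04s0043g00820) was higher in GAG-3309C than in GAG-17-37, with 2.41, 1.94 and 2.66 FPKM against 1.01, 1.51 and 1.26 (0.85 ± 0.18, SE, adjusted p = 0.0053, lost without all A libraries or in a fit of the 6 libraries alone), and SNF7 (Vv07s0005g02500), of the complex that sorts membrane proteins into vacuoles, had 3.39, 3.48 and 3.45 FPKM in GAG-41B and 15.9, 14.6 and 16.4 in GAG-1103P. Coatomer subunit beta 2 (Vv09s0002g04720), part of the coat of Golgi vesicles, averaged 87.4 ± 4.41 FPKM in GAG-41B and 6.57 ± 0.657 in GAG-1103P. Over the family, 12 members were called higher and 3 lower in GAG-KOB vs. GAG-17-37, 9 higher and 2 lower in GAG-KOB vs. GAG-3309C, and 3 higher and 4 lower in GAG-3309C vs. GAG-17-37.

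Lipid flippases and lipid transfer proteins (9 members) fell into classes with different directions. The 2 phospholipid-transporting ATPases and the 2 LEM3/CDC50 genes, whose products are known partners of such ATPases, were all higher in GAG-41B. LEM3 (Vv19s0085g00850) had 638, 592 and 580.0 FPKM for GAG-41B, 289, 267 and 259.6 for GAG-KOB, 232, 225 and 215 for GAG-3309C and 195, 176 and 178 for GAG-17-37, against 120.0, 114 and 115 FPKM for GAG-1103P, and the phospholipid-transporting ATPase Vv01s0011g02480 had 268, 278 and 274 FPKM in GAG-41B, 80.9, 77.9 and 73.9 in GAG-KOB and 18.5, 18.2 and 19.2 in GAG-1103P. All 4 genes were higher in GAG-KOB than in GAG-17-37 and GAG-3309C by limma, with LEM3 against GAG-3309C not called at the same FPKM sum. Of the 5 lipid transfer genes, 4 were in Cluster 2. GLYCOLIPID TRANSFER PROTEIN 3 (Vv18s0001g15700) had 0.430, 0.545 and 0.399 FPKM for GAG-41B, 2.57, 2.02 and 1.89 for GAG-KOB, 3.35, 3.41 and 3.72 for GAG-3309C and 4.07, 3.78 and 5.01 for GAG-17-37, against 11, 8.48 and 10.2 FPKM for GAG-1103P. A lipid transfer protein (Vv13s0156g00090) was among the most negative changes of GAG-KOB, with 1.85, 1.30 and 1.22 FPKM in GAG-KOB and 7.01, 5.02 and 5.67 in GAG-3309C (-1.95 ± 0.30, SE, adjusted p = 2.8e-04). The call counts were 4 higher and 3 lower in GAG-KOB vs. GAG-17-37, 5 higher and 2 lower in GAG-KOB vs. GAG-3309C, and 1 in each direction in GAG-3309C vs. GAG-17-37.

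AAA-type ATPases (8 members) use ATP to remodel proteins and are not carriers by name. The 5 neighbours Vv14s0066g02060 to Vv14s0066g02100 had GAG-41B differences between 4.04 and 5.74. Vv14s0066g02090 had 18.7, 23.4 and 22.8 FPKM for GAG-41B, 3.52, 4.85 and 3.92 for GAG-KOB, 2.31, 2.23 and 2.54 for GAG-3309C and 2.38, 2.54 and 1.76 for GAG-17-37, against 0.288, 0.368 and 0.263 FPKM for GAG-1103P. GAG-41B was far above the rest, and every combination was above GAG-1103P. Its neighbour Vv14s0066g02100 was lower in GAG-3309C (0.646, 0.330 and 0.697 FPKM) than in GAG-17-37 (1.13, 1.18 and 1.29 FPKM, log2 difference -1.03 ± 0.23, SE, adjusted p = 0.0083, limma, lost in a fit of the 6 libraries alone). In contrast, Vv16s0050g01830, the most abundant of the family, had 13.3, 13.9 and 13.4 FPKM for GAG-41B, 48.9, 50.1 and 49.6 for GAG-KOB, 52.3, 57.8 and 60.01 for GAG-3309C and 69.96, 71.3 and 72.5 for GAG-17-37, against 124, 125 and 132 FPKM for GAG-1103P, with GAG-41B lowest, GAG-1103P highest and all 3 tested comparisons called, that of GAG-KOB vs. GAG-3309C not in a fit of its 6 libraries alone. The family had 5 members called higher and 1 lower in GAG-KOB vs. GAG-17-37, 6 higher and 1 lower in GAG-KOB vs. GAG-3309C, and 1 higher and 2 lower in GAG-3309C vs. GAG-17-37.

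Chaperones and genes of protein export and nuclear import (13 members) move proteins rather than solutes. DnaJ homolog subfamily A member 3 (Vv01s0010g03640), a co-chaperone, was the most abundant member of the whole list, with 2792, 2736 and 2703 FPKM for GAG-41B, 942, 932 and 989 for GAG-KOB, 469, 741 and 584 for GAG-3309C and 673, 696 and 634 for GAG-17-37, against 562, 541 and 507 FPKM for GAG-1103P. GAG-41B was several times above the rest, and GAG-3309C spanned a range that included GAG-1103P. A protein with PB1 and TPR domains (Vv11s0118g00490) had 71.4, 89.8 and 89.5 FPKM for GAG-41B, 27.6, 34.1 and 31.9 for GAG-KOB, 8.56, 9.37 and 10.4 for GAG-3309C and 13.8, 18.9 and 17.9 for GAG-17-37, against 7.08, 7.86 and 8.27 FPKM for GAG-1103P, and was called in all 3 tested comparisons, with -0.82 ± 0.13, SE, adjusted p = 0.0011 in GAG-3309C vs. GAG-17-37 (limma). Nuclear transport factor 2 (Vv14s0068g00310) was lower in GAG-41B, with 1.097, 0.901 and 1.19 FPKM, against 6.16, 6.34 and 7.04 in GAG-1103P. Both copies of signal peptidase 1, which removes signal peptides of exported proteins, were in Cluster 1, and Vv18s0001g11290 averaged 635 ± 44.8 FPKM in GAG-41B and 130.2 ± 6.71 in GAG-1103P (SD, n = 3). In the family, 6 members were called higher and 4 lower in GAG-KOB vs. GAG-17-37, 4 higher and 3 lower in GAG-KOB vs. GAG-3309C, and 1 higher and 3 lower in GAG-3309C vs. GAG-17-37.

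The remaining 37 members, nodulin-like, major facilitator and other genes, were of mixed function, 23 in Cluster 1 and 14 in Cluster 2. PROTON GRADIENT REGULATION 5 (Vv05s0049g01760), which in chloroplasts serves cyclic electron flow around photosystem I, was the most abundant, with 1871, 2062 and 2082 FPKM for GAG-41B, 999, 1089.9 and 1168 for GAG-KOB, 453, 537 and 499 for GAG-3309C and 570.4, 675 and 655 for GAG-17-37, against 458, 477 and 488 FPKM for GAG-1103P. GAG-3309C overlapped with GAG-1103P, and GAG-KOB was above GAG-17-37 (0.78 ± 0.08, SE, adjusted p = 1.5e-05, limma). Of the MtN21 nodulin genes, a family of plant membrane carriers in which some Arabidopsis members export amino acids, Vv04s0044g00310 had 17.4, 17.1 and 16.5 FPKM in GAG-41B and 1.41, 0.772 and 0.826 in GAG-1103P. In GAG-3309C it had 12.8, 5.25 and 4.61 FPKM, so that its replicate A stood apart from B and C. A nodulin-like protein (Vv13s0019g05060) was nearly silent in GAG-41B, with 0.398, 0 and 0.700 FPKM, 1 library being listed at 0, against 13.1, 11.9 and 11.9 in GAG-1103P.

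Some genes of this mixed set differed between GAG-KOB and GAG-3309C or GAG-17-37. A nodulin family protein (Vv08s0007g04860) had 55.1, 44.5 and 47.6 FPKM for GAG-41B, 55.2, 41.5 and 42.5 for GAG-KOB, 13, 8.53 and 8.07 for GAG-3309C and 19.7, 13.7 and 14.7 for GAG-17-37, against 5.75, 4.13 and 4.65 FPKM for GAG-1103P. GAG-41B and GAG-KOB overlapped, and GAG-KOB was above GAG-3309C by 2.24 ± 0.20, SE, adjusted p = 2.5e-06 (limma). The tetracycline transporter Vv13s0106g00610, a major facilitator gene, was high in GAG-3309C and GAG-17-37 only, with 0.302, 0.340 and 0.166 FPKM for GAG-41B, 0.671, 0.800 and 0.306 for GAG-KOB, 4.21, 3.28 and 2.76 for GAG-3309C and 3.13, 2.23 and 1.97 for GAG-17-37, against 0.575, 0.460 and 0.902 FPKM for GAG-1103P. By these means it passed the 4-fold limit in GAG-3309C alone, so its GAG-3309C levels are given without a test. In the comparison without that combination, it was lower in GAG-KOB than in GAG-17-37 (-1.93 ± 0.33, SE, adjusted p = 6.9e-04). Nodulin 1A (Vv03s0063g01210), annotated as senescence-associated, was highest in GAG-17-37, with 6.28, 5.82 and 6.57 FPKM, against 0.857, 0.926 and 1.21 in GAG-1103P, and a diamide synthase (Vv18s0001g09360) had 15.9, 16.3 and 17.2 FPKM in GAG-17-37 and 10.4, 11 and 9.49 in GAG-1103P. RARE-COLD-INDUCIBLE 2A (Vv13s0019g03650), a small membrane protein, averaged 82.2 ± 49.5 FPKM in GAG-41B and 803 ± 158 in GAG-1103P (SD, n = 3). All 3 NSL1 genes, named after Arabidopsis NECROTIC SPOTTED LESIONS 1, were in Cluster 1, with Vv05s0062g00790 at 246 ± 7.57 FPKM in GAG-41B and 41.3 ± 1.06 in GAG-1103P. The 2 polyol transporters had different directions, with 64 ± 0.747 FPKM for POLYOL TRANSPORTER 5 (Vv12s0059g00250) and 3.37 ± 0.0428 for polyol transporter 6 (Vv04s0023g01500) in GAG-41B, and 9.13 ± 0.555 and 19 ± 0.977 in GAG-1103P. The set had 13 members called higher and 8 lower in GAG-KOB vs. GAG-17-37, 12 higher and 6 lower in GAG-KOB vs. GAG-3309C, and 3 higher and 5 lower in GAG-3309C vs. GAG-17-37.

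Some members had their highest or lowest level in a combination other than GAG-41B and GAG-1103P, with the 3 libraries outside the range of the other 12. In GAG-KOB 6 members were highest in this way and 0 lowest, beside 2.02% and 1.5% of all genes tested. They were NITRATE TRANSPORTER2.5, the gene annotated as Nitrate transporter, POT gene Vv13s0067g02340, sulfate transporter 3.1 and both aquaporins, of which the POT gene and the aquaporins were in the list through GAG-KOB alone. In GAG-3309C 4 members were highest (PDR12 gene Vv09s0002g05560, POT gene Vv14s0066g02020, amino acid permease Vv19s0027g01890 and CAX3) and 3 lowest, among them NITRATE TRANSPORTER 1:2 and ACA13 gene Vv05s0020g04300, beside 2.86% and 4.39% of all genes. In GAG-17-37 5 members were highest and 1 lowest, beside 1.02% and 0.74%, with the POT gene Vv09s0002g04130, OCT1, boron transporter-like protein 1, nodulin 1A and the diamide synthase as the highest and the 2-oxoglutarate/malate carrier as the lowest. NITRATE TRANSPORTER2.5 and sulfate transporter 3.1 passed the 4-fold limit in GAG-KOB too, Vv09s0002g05560 and CAX3 in GAG-3309C, and nodulin 1A in GAG-17-37. The choice of the members favors high levels of these genes there, so nothing is read from the shares. By the mean alone, GAG-KOB was highest for 11 members (beside 9.7% of all genes) and lowest for 1 (10.7%), GAG-3309C highest for 19 (15.8%) and lowest for 8 (15.3%), and GAG-17-37 highest for 13 (9%) and lowest for 7 (8.47%). By contrast, 136 members were above and 58 below all other libraries in GAG-41B, beside 22.8% and 20.3%, a pattern that the choice of the members favors.

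**Figure D4:**
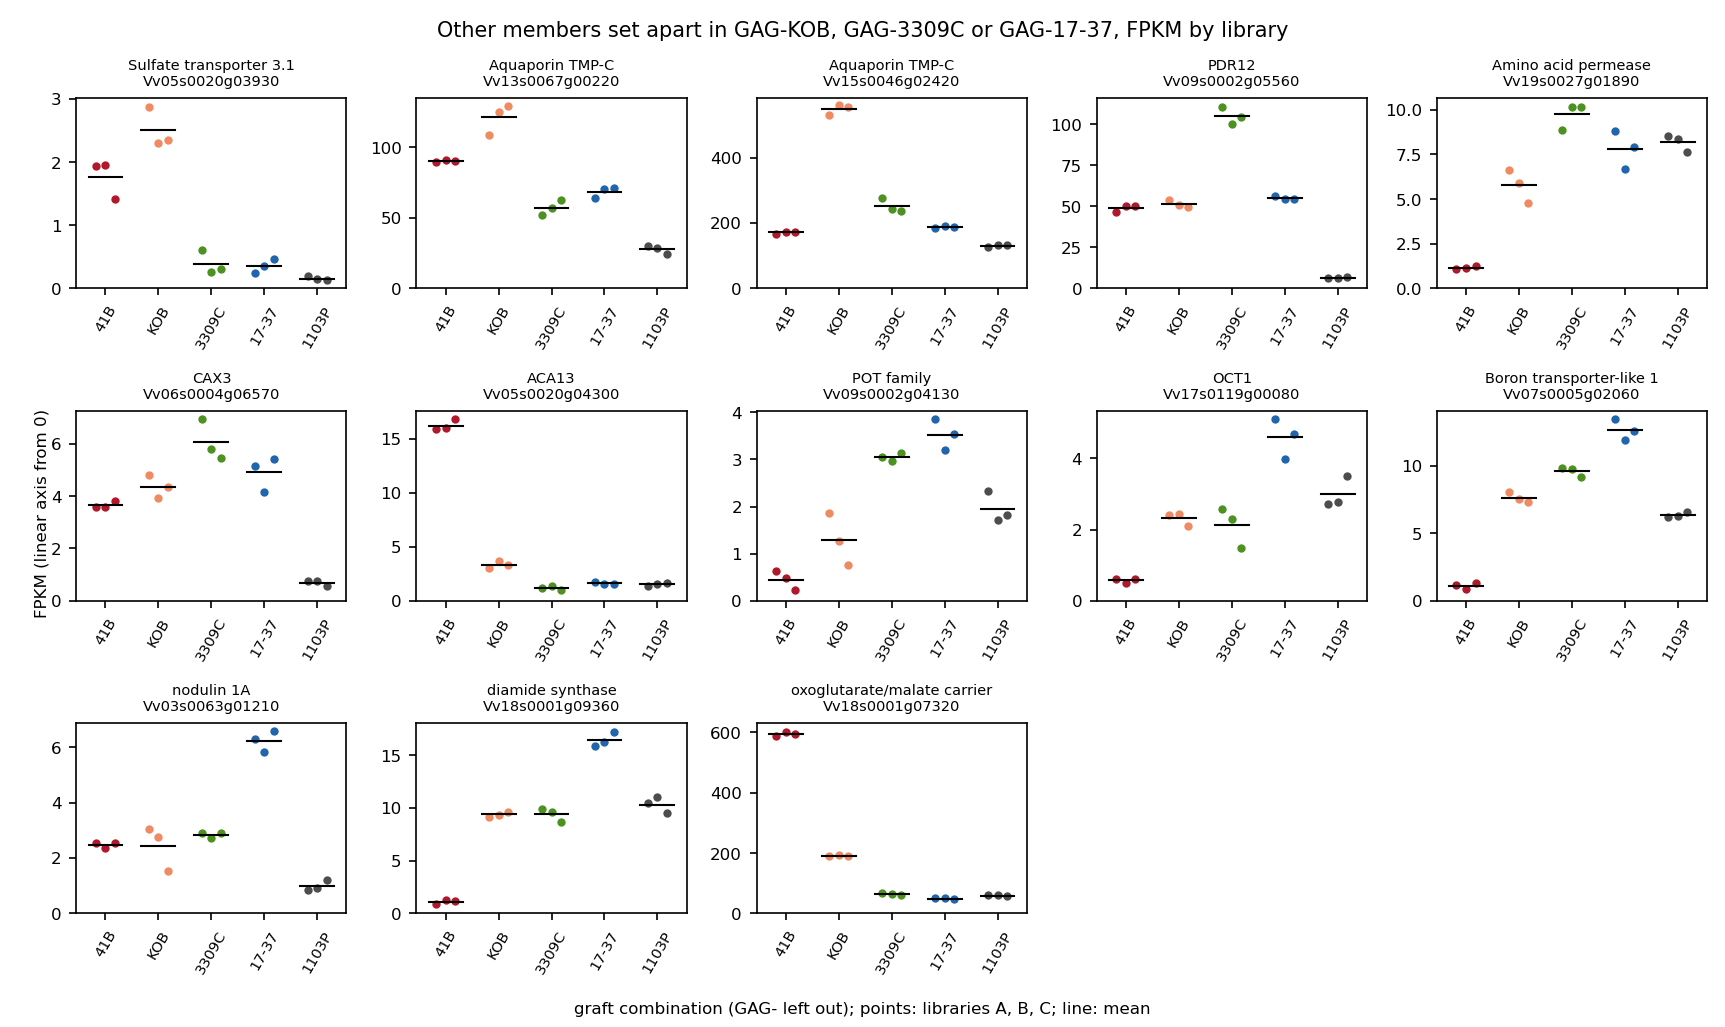
FPKM (y axes, linear, from 0) in the 3 libraries (points) of each combination (x axis), with the mean as a line, for 13 further members, averaging 1 FPKM or more, that had GAG-KOB, GAG-3309C or GAG-17-37 as the highest or lowest combination without overlap. Aquaporin gene Vv15s0046g02420 is at 531 FPKM or more in GAG-KOB, and PDR12 gene Vv09s0002g05560 at 99.9 FPKM or more in GAG-3309C.

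By the numbers in their identifiers, 64 members formed 24 runs of neighbours, 9 of them with 3 members or more and the largest with 6, and 20 runs lay within 1 part of the list. Reads of near-identical copies may have been divided between them in the counting, so the levels of single copies within a run are less certain than their common direction. In the ACA13 run, the 5 genes had GAG-41B differences between 2.69 and 4.56, over levels in GAG-41B between 1.55 and 51.7 FPKM. In the PDR12 run, 3 genes were highest in GAG-41B and Vv09s0002g05560 in GAG-3309C. The run of 6 on Vv14s0066 joined POT gene Vv14s0066g02020, lower in GAG-41B (-3.05), and 5 AAA-type ATPase genes that were all higher. In GAG-KOB vs. GAG-17-37, 44 of the 64 members in runs and 121 of the other 171 were called, beside 33.3% of all genes tested.

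**Figure D5:**
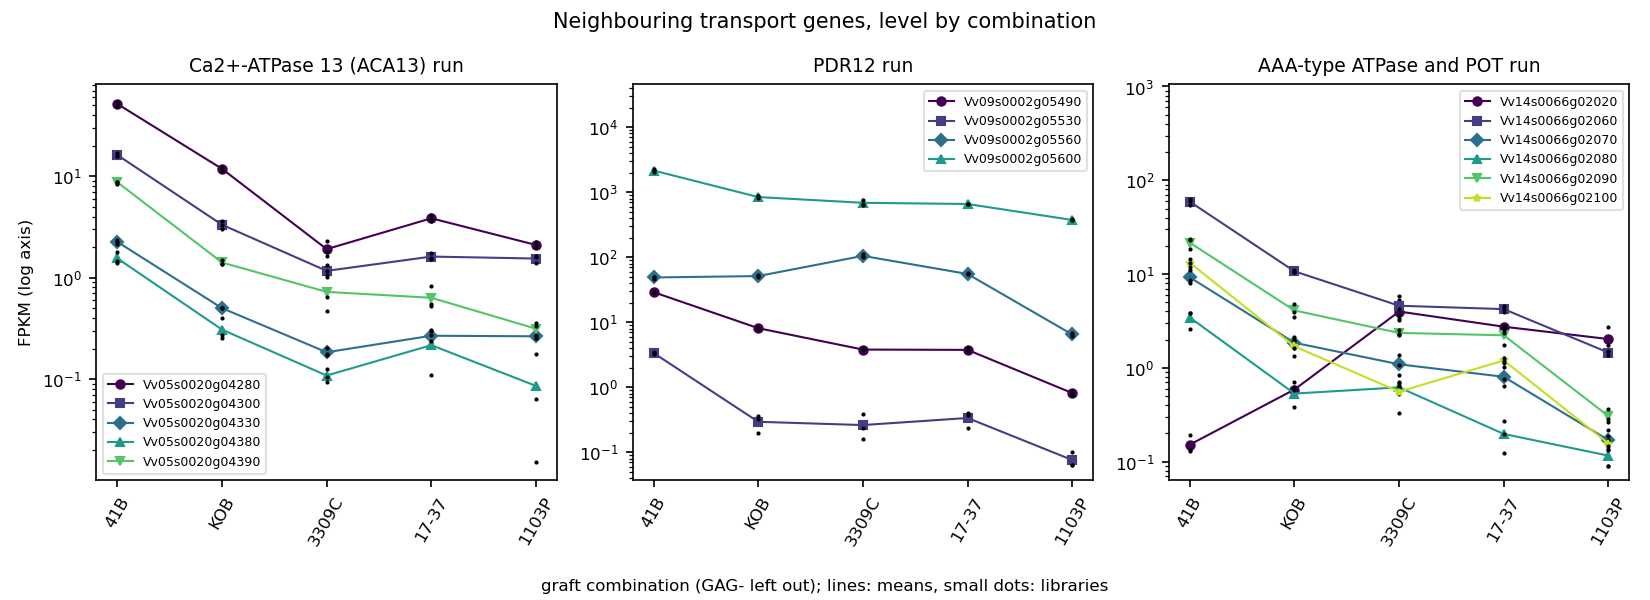
Mean FPKM (y axis, log scale, lines and markers) and the libraries (small dots) of the genes in 3 runs of neighbours, by combination (x axis). The ACA13 genes and the AAA-type ATPase genes are highest in GAG-41B, PDR12 gene Vv09s0002g05560 in GAG-3309C (mean 105 FPKM), and POT gene Vv14s0066g02020 is lowest in GAG-41B (mean 0.152 FPKM).

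Transport genes picked by annotation words alone were looked at on part of the unplaced scaffolds. In the part of the study's gene annotation at hand, 39 genes have an annotation of ion, nitrogen, water or other transport. The list is not complete: the Ca2+-transporting ATPase Vv00s0463g00030 and EXO70 H2 (Vv00s0317g00140) are members on such scaffolds and lie outside it. Of these, 25 passed the limit on low values, and 6 of the 25 are members. The other 19 are what was left without the genes of the 4-fold list. That choice favors small changes against GAG-1103P, so nothing is read from their counts beside the shares of all genes. Between GAG-41B and GAG-1103P, 11 of the 19 that are no members were called by limma (5 higher, 6 lower), beside 68.8% of all genes tested (34.4% higher, 34.4% lower). In GAG-KOB 11 of the 19 were called (7 higher, 4 lower, beside 52.6%, 26.9% and 25.7%), in GAG-3309C 5 (3 higher, 2 lower, beside 43.1%, 22% and 21.1%) and in GAG-17-37 3 (3 higher, 0 lower, beside 34.3%, 18.6% and 15.6%). The 25 together were picked by annotation alone, but the calls of the 6 members among them are favored by the 4-fold limit of the study's list. With these 6 members included, the numbers called were 17 (9 higher, 8 lower) in GAG-41B, 16 (11 higher, 5 lower) in GAG-KOB, 9 (6 higher, 3 lower) in GAG-3309C and 8 (6 higher, 2 lower) in GAG-17-37. With every library scaled to the same sum, the split of the 25 was 7 higher and 9 lower in GAG-41B, where the direction of the majority turned, 9 higher and 7 lower in GAG-KOB, and 6 higher and 1 lower in GAG-3309C. After quantile normalization it was 8 higher and 8 lower in GAG-41B and 9 higher and 7 lower in GAG-KOB. With the same median or after quantile normalization it was 5 higher and 4 lower in GAG-3309C.

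The rule names 4 genes of this set, the largest changes in GAG-41B. KUP1, Nramp6 and a MATE gene (Vv00s0225g00080) are members, the last with 0.805, 0.324 and 0.723 FPKM in GAG-41B and 4.04, 3.76 and 2.92 in GAG-1103P. A folate-biopterin transporter (Vv00s0218g00210) is no member and showed 3.13 and 1.53 FPKM in GAG-41B B and C, while GAG-41B A and the libraries of the other combinations were listed at 0. It passed the limit on low values only through these 2 libraries, so its place among the 5 higher genes is a description and no p-value is given. The 7 sugar carriers that were left out were of both directions too, with GAG-41B differences between -3.12 and 4.66, 5 of them at 2 or more and 1 at -2 or less.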

How the data were processed

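RNA-seq was carried out on leaves of 5 graft combinations with 3 libraries each. Per the submitters' processing notes and the study's methods, the authors called bases with CASAVA 1.8.2, trimmed single-end reads with Scythe and Sickle, aligned them to the PN40024 genome with TopHat2 2.0.14 and Bowtie2 2.2.4, and deposited FPKM per gene from Cufflinks 2.2.0 with geometric normalization. The kit does not mark strand, so overlapping genes on opposite strands cannot be told apart. FPKM are no counts, so no count test was run, and the read totals per library that the study lists were not used here.

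Values were analysed as log2(FPKM + 0.1), and the log2 differences are on this scale, which understates those of low genes. Statements on which members passed the 4-fold limit, and the log2 ratios near it, instead use the ratio of mean FPKM. The 21364 genes averaging 0.1 FPKM or more were fitted with limma 3.58.1 in R 4.3.3, with 1 mean per combination over the 15 libraries and a trended prior, and p-values were adjusted by Benjamini-Hochberg over all of them. The code was tested on simulated data. A call needed an adjusted p of 0.05 or less. Tests were two-sided. Counts and medians were made with Python 3.11.15, pandas 2.3.3 and numpy 2.4.6, and figures with matplotlib 3.10.9.

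The members, the families and the lists were chosen with earlier results of these data known. Of the supplementary list only the gene identifiers, the annotation, the category and the cluster were used. Named genes were, in each family, the most abundant member and those with the highest and lowest GAG-41B difference at an average of 1 FPKM or more. To these were added, in each tested comparison, the 4 genes per direction with the largest called changes without overlap, all members of 1 FPKM or more whose libraries in one of the middle combinations (GAG-KOB, GAG-3309C, GAG-17-37) were set apart, and 2 genes per direction from the list on part of the unplaced scaffolds. The rule gives 73 genes. Genes within 50 of each other in the last digits of the identifier were called neighbours. Alternatives were other pseudocounts, filters, scalings, a replicate block, the libraries of each comparison alone, a stricter threshold, and libraries left out.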

Additional observations from a re-analysis of the deposited data

How the results depend on the processing

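Of the named genes called in the 3 tested comparisons, none changed its direction under the 26 settings run for them. The largest dependence was that of GAG-3309C vs. GAG-17-37: 54 members were called over all libraries, 25 in a fit of its own 6 libraries (beside 8.55% of all genes) and 24 at an adjusted p of 0.005 or less (7.36%). Of the 154 members past the limit in GAG-41B alone, an alternative chosen after seeing the data, 31 were called in this comparison, 12 with the 6 libraries and 10 at 0.005. With a pseudocount of 1, the members at a log2 difference of 2 or more from GAG-1103P numbered 26 in GAG-KOB, 9 in GAG-3309C and 4 in GAG-17-37, while by the ratio of mean FPKM GAG-3309C had 41. Of the listed genes on unplaced scaffolds, 5 were called in GAG-3309C and 5 in GAG-17-37 at 0.005. The share of all genes at this limit is not given, so nothing is read from these 2 counts. The causes were not tested.

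Leaving out 1 library at a time gave 157 to 167 called members in GAG-KOB vs. GAG-17-37, 41 to 61 in GAG-3309C vs. GAG-17-37 and 147 to 160.0 in GAG-KOB vs. GAG-3309C. The members at a log2 difference of 2 or more numbered 198 to 206 in GAG-41B, 48 to 53 in GAG-KOB, 17 to 36 in GAG-3309C and 17 to 19 in GAG-17-37. For the listed genes on unplaced scaffolds the ranges were 17 to 18, 13 to 18, 7 to 10 and 6 to 9. Of the named genes, 63, 27 and 59 were called in GAG-KOB vs. GAG-17-37, GAG-3309C vs. GAG-17-37 and GAG-KOB vs. GAG-3309C, and in that order 3, 11 and 5 of these calls were lost in a fit of the 6 libraries alone and 9, 11 and 8 at 0.005, both added after seeing the data. Under the 24 other settings, 27 of 1512, 34 of 648 and 37 of 1416 values lost the call.

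The labels do not say that a replicate letter marks a shared batch, and the correlation of deviations of libraries with the same letter was between -0.05 and 0.14, so the letters were not used as pairs. The A libraries did share structure: all 5 correlated best with the other A libraries, against 0 of 5 for B and 0 of 5 for C. With a replicate block, 176 members were called in GAG-KOB vs. GAG-17-37, 80.0 in GAG-3309C vs. GAG-17-37 and 167 in GAG-KOB vs. GAG-3309C. The shares of all genes under this block are not given, so nothing is read from these counts. The precision of low values was taken from the spread within the 5 combinations over all 15 libraries, with a prior that follows the level, and not from read depth.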
